A study of Homo sapiens with 12 samples.

Results

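Antisense RNA genes with a symbol ending in -AS and a number were examined in 2 head and neck squamous cell carcinoma lines treated with interferon alpha (IFNα). The gene table held 1231 such symbols among 60099 genes, and 537 of them had no count in any sample. The 115 with a mean estimated count of at least 50 over the 12 samples were kept as members. Just inside this limit were SGMS1-AS1 with a mean count of 50.5 and PAN3-AS1 with 51.0, and just outside were BBOX1-AS1 with 49.7 and ITGA9-AS1 with 48.7. A symbol was matched to its sense gene by removing the ending, which gave 113 members a sense gene in the table, 111 different genes, because DLGAP1 and PAXIP1 each had 2 antisense partners. RPARP-AS1 and HOXA-AS2 had none.

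Ribosome-depleted total RNA of Cal27 and HN30 cells, both established lines, was sequenced with a strand-marking library kit. Cells had been kept for 24 h at a dose of 0, 20 or 200 ng/ml. The letters A, B and C stand for 0, 20 and 200 ng/ml in one line and D, E and F for the same doses in the other, with 2 replicates for each letter. Which of the lines is A-C and which is D-F cannot be read from the labels, and the sets are therefore named by their letters. No other treatment or genetic change is named for any group. The labels also do not say that replicates were separate cultures, so p-values measure only the spread between these samples, which may be technical.

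Natural antisense RNAs are transcribed from the strand opposite to a protein-coding gene. Some start beside the start of their sense gene and run away from it, others run into its far end or lie inside its body, and the RNA can pair with the sense transcript, act on chromatin at the locus, host small nucleolar RNAs or have no known role. IFNα binds its receptor and activates transcription factors that bind an element called ISRE (interferon-stimulated response element) in the promoters of antiviral genes. Double-stranded RNA, which a sense and an antisense transcript can form, is itself sensed by antiviral proteins such as RIG-I, MDA5 and PKR.

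The total estimated count was 10517448 to 16056734 per sample, and the members held 0.151% to 0.210% of it. Of 84 interferon-stimulated genes listed for this report, 69 rose at 200 ng/ml and 63 at 20 ng/ml, with a median log2 fold change of 2.32 and 1.82. Of 23 genes for double-stranded RNA binding and sensing, 8 rose at 200 ng/ml and none fell, among them DDX58, which encodes RIG-I, by 2.83 on the log2 scale (edgeR adjusted p = 2.6e-09). The squamous markers were measured in both line sets, all 8 being tested, and 5 of them were lower in the D than in the A controls. Their summed TPM was 2199 to 2831 in A-C and 1016 to 1261 in D-F. Of the leukocyte markers CD3E was at 0 in every sample, and the summed TPM of all 6 was 5.34 to 40.6. Of the 2 that were tested CD68, which many cell types express, rose at 200 ng/ml. The summed TPM of the 6 fibroblast markers was 5.55 to 15.4.

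TPM, a transcript abundance in which every sample has the same total, is scaled for length and depth and is used here for levels. The median of the members' mean TPM was 9.25, with quartiles of 5.66 and 16.8, and the range was 0.661 to 245. The sense genes had a median of 20.2. The highest member by far was LRRC75A-AS1, a host of small nucleolar RNAs with 3 such genes on its strand within its span, at chr17:16438822-16478678 (GRCh38). Its TPM was 230 and 262 in the A samples, 233 and 240 in B, 191 and 136 in C, 273 and 286 in D, 306 and 268 in E, and 264 and 257 in F. The C samples were the lowest of the 12, and the fitted difference at 200 ng/ml did not pass the test (log2 fold change of -0.32, adjusted p = 0.085).

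The next highest mean TPM values were 72.6 for CCDC144NL-AS1, 58.3 for FGD5-AS1, 46.9 for both NUTM2B-AS1 and PSMA3-AS1, and 45.0 for IGFL2-AS1. PSMA3 encodes a core subunit of the proteasome, and its antisense gene varied between 40.3 and 55.3 TPM over all 12 samples. FGD5-AS1 was at 18.9 to 30.0 TPM in A-C and at 79.0 to 105 in D-F. The sense genes FGD5 and IGFL2 had no count in any sample, so these 2 antisense RNAs were found without the genes they are named for. IGFL2-AS1 is matched by symbol only, since it lies 27866 bases from IGFL2 without overlap. NUTM2B-AS1 is less certain than the others, because 26.7% of the 31-base words of its transcripts also occur in transcripts of other genes. The same share was 61.2% for its near copy NUTM2A-AS1 and a median of 3.69% over the members.

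An antisense gene was usually lower than its sense gene. The ratio of antisense to sense mean TPM had a median of 0.337 over the 109 pairs whose sense gene was above 0, and 36 members exceeded their sense gene, 20 of them by more than 10 times, while 15 were more than 10 times lower than it. In 8 of the 20 the sense gene averaged at most 3 counts, so the ratio is no measured fold, and in 4 further pairs the sense gene was at 0. In all 113 pairs the strands were opposite, and GENCODE release 29 placed 108 members at the position given in the deposited table. It typed 69 members as antisense, 20 as lincRNA, 20 as processed transcript and 2, MMP24-AS1 and NCBP2-AS2, as protein coding. By position 44 pairs were head-to-head, with starts at most 1000 bases apart, 27 were tail-to-tail, 22 had one gene within the other and 20 had another arrangement. The 2 genes overlapped along their length in 91 of the 113 pairs. The median ratio was 0.213 for head-to-head pairs, 0.378 for tail-to-tail pairs and 2.01 for nested pairs. Exons of 74 members overlapped exons of the sense gene. Over all 113 pairs, those without overlap included, the median overlap was 3.30% of the member's exon bases, and in 6 members it was at least 50%. The library kit keeps the strand, but whether the counting used it is not given in the sources used here, so values of the overlapping pairs are uncertain.

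**Figure D1:**
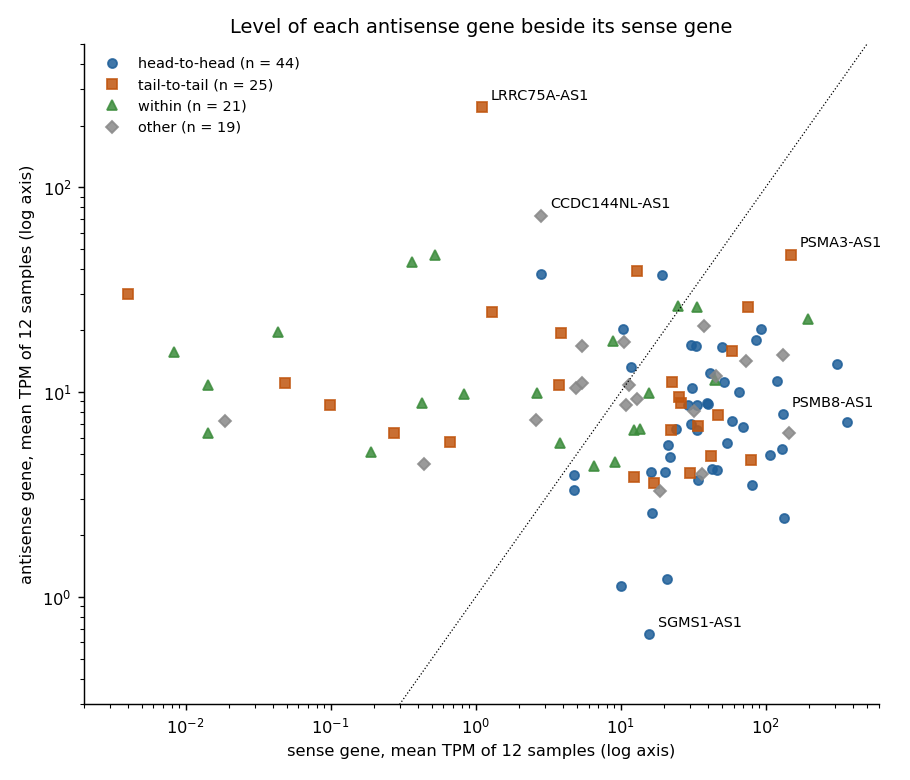
Mean TPM over 12 samples of each antisense gene (vertical log axis) against its sense gene (horizontal log axis) for the 109 pairs whose sense gene was above 0, with the arrangement of the pair as symbol. The dotted line marks equal levels; most head-to-head pairs lie under it, and LRRC75A-AS1, at 245 TPM, lies far above.

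The first comparison asked which antisense genes responded to 200 ng/ml IFNα in both line sets together. None of the 115 members rose and 1, ADIRF-AS1, or 0.870%, fell at least 2-fold with an adjusted p of at most 0.05. This is the call rule used throughout (edgeR quasi-likelihood test on estimated counts, Benjamini-Hochberg adjustment over 19944 genes). Of all genes tested 1.58% rose and 0.552% fell by this rule. The members' median log2 fold change was -0.05, beside -0.01 for all genes, and it lay between -0.5 and 0.5 for 103 of 115. The data were precise enough to bound most members, since the 95% confidence interval of 99 lay within 2-fold in either direction. At an unadjusted p of at most 0.05, 8 were higher and 17 lower, or 21.7% of members beside 23.9% of all genes, and DESeq2 also called none higher.

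**Figure D2:**
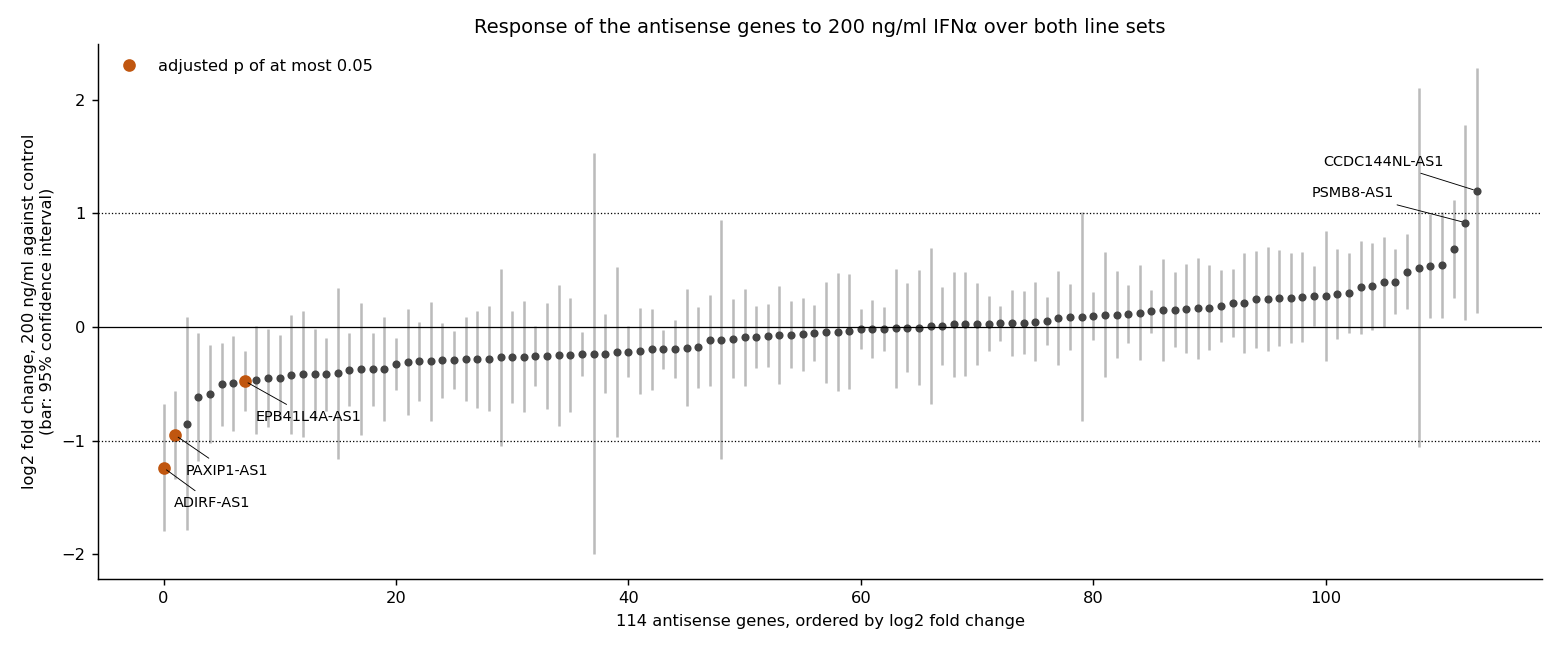
Log2 fold change at 200 ng/ml against control, over both line sets, of 114 antisense genes in order, with 95% confidence intervals as bars; dotted lines mark 2-fold. Orange points had an adjusted p of at most 0.05, and only ADIRF-AS1 among these lies beyond 2-fold. AFAP1-AS1, at 0 in D-F, is left out because its interval could not be estimated.

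ADIRF-AS1 lies at chr10:86965345-86971311 on the minus strand and overlaps ADIRF, the adipogenesis regulatory factor gene, by 16.0% of its exon bases. Its estimated counts were 163 and 130 in the A controls, 114 and 122 in B, and 34 and 46 in C. In the other line they were 228 and 181 in the D controls, 70 and 103 in E, and 103 and 59 in F. The 200 ng/ml samples were under the controls of their own line in both sets, with no overlap. The log2 fold change was -1.24 (standard error 0.25, adjusted p = 0.014), against -1.47 in the A-C set alone and -1.01 in the D-F set, and at 20 ng/ml it was -0.59 (adjusted p = 0.25). All 17 planned refits on counts kept this call. On TPM, with limma on log2(TPM + 0.1), the value was -0.997 and the call was lost (adjusted p = 0.15). TPM was 11.5 and 6.83 in A, 4.83 and 5.76 in C, 15.8 and 10.5 in D, and 9.60 and 2.94 in F, again without overlap within a line.

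The counts of ADIRF-AS1 were divided between 4 transcripts, and the controls and treated samples differed in that division. The 3822-base transcript ENST00000609111 had 74 and 40 counts in A but 0 in both C samples, while it had 61 and 46 in D and 35 and 43 in F. The retained-intron transcript ENST00000609170 had 136 and 119 counts in D and 52 and 14 in F. ADIRF itself did not pass the test, with a log2 fold change of -0.14 (95% interval -0.66 to 0.38).

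Without the fold minimum, 3 members passed the adjusted p at 200 ng/ml, all lower, or 2.61% of members beside 9.55% of all genes. Besides ADIRF-AS1 these were PAXIP1-AS1 and EPB41L4A-AS1, named here after their values were seen. PAXIP1-AS1 starts 364 bases from PAXIP1, which encodes a DNA damage response protein. It had 4.62 and 4.57 TPM in A, 1.93 and 1.47 in C, 5.80 and 4.80 in D, and 3.88 and 3.92 in F. The fall was 0.95 on the log2 scale over both sets (adjusted p = 0.0087), and within A-C it passed the fold minimum at -1.39 (adjusted p = 0.013). PAXIP1 had a log2 fold change of 0.01. EPB41L4A-AS1, whose exons overlap those of its sense gene by 49.6% of their bases, fell by 0.48 (adjusted p = 0.034).

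At 20 ng/ml no member rose and 1 fell, SGMS1-AS1, beside 0.963% and 0.186% of all genes. At an unadjusted p of at most 0.05, 5 were higher and 14 lower, or 16.5% of members beside 16.8% of all genes. DESeq2 called 1 higher, PSMB8-AS1. SGMS1-AS1 starts 212 bases from SGMS1, which encodes sphingomyelin synthase, and its counts were 76 and 67 in A, 5 and 6 in B, and 34 and 51 in C. In D-F they were 71 and 106 in D, 52 and 32 in E, and 57 and 49 in F. The B samples alone were near 0, and the log2 fold change at 20 ng/ml over both sets was -2.18 (adjusted p = 0.0028).

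The TPM values of SGMS1-AS1 did not show this difference. They were 1.01 and 0.553 in A, 0.629 and 0.599 in B, 0.654 and 0.933 in D, and 0.642 and 0.621 in E, so B lay between the A samples. On TPM the log2 fold change was -0.26 (limma adjusted p = 0.77). The table lists 2 transcripts for the gene. ENST00000443374, of 12400 bases, had 74 and 66 counts in A and 0 in both B samples, while ENST00000609579, of 929 bases, had 2 and 1 in A and 5 and 6 in B. The counts missing in B were thus those of the long transcript, and the part of this division between transcripts in the call was not tested.

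**Figure D3:**
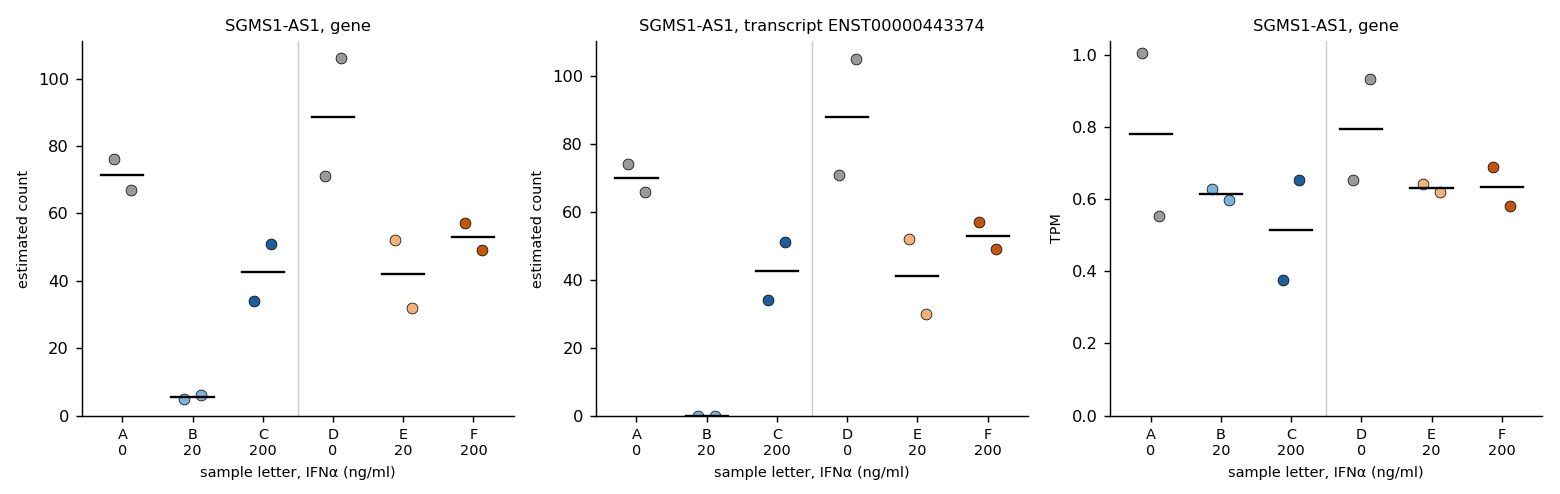
SGMS1-AS1 in each of the 12 samples by letter and IFNα dose: estimated count of the gene (left), of its long transcript (middle) and TPM of the gene (right), with bars at the mean of 2 replicates. The B counts are 5 and 6 against 67 and 76 in A, while the B values in TPM lie between those of A.

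Between 20 and 200 ng/ml no member was called, beside 0.0451% of all genes. Unadjusted, 10 members had a p of at most 0.05, or 8.70% beside 9.26% of all genes, and DESeq2 called 1, SGMS1-AS1.

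Within A-C no member rose at 200 ng/ml and 2 fell, ADIRF-AS1 and PAXIP1-AS1, beside 1.41% and 0.767% of all genes. The call of ADIRF-AS1 in A-C held in 5 of 17 refits on counts, and on TPM its value was -0.74 (limma adjusted p = 0.47), while that of PAXIP1-AS1 held in 14 and on TPM. At an unadjusted p of at most 0.05, 4 were higher and 10 lower, or 12.2% of members beside 22.3% of all genes, and DESeq2 also called none higher. Within D-F 1 rose, CCDC144NL-AS1, and none fell, beside 1.67% and 0.416% of all genes. Unadjusted, 8 were higher and 13 lower, or 18.3% of members beside 18.7% of all genes, and DESeq2 also called none lower. DESeq2 called PSMB8-AS1 higher in D-F in place of CCDC144NL-AS1. The number of lower calls in A-C was 0 to 4 when samples were left out in turn. It was 0 without A replicate 2 or without C replicate 2, and 4 without C replicate 1.

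CCDC144NL-AS1 lies at chr17:20868433-21002276 on the plus strand. It was near absent in A-C, at 0 to 2.14 TPM. In D-F it was at 69.5 and 66.1 TPM in the controls, 164 and 158 at 20 ng/ml, and 202 and 208 at 200 ng/ml. Each dose lay above the one before with no overlap. On TPM the log2 fold change at 200 ng/ml in D-F was 1.59 and was not called (limma adjusted p = 0.38). On counts it was 1.53 and was called (edgeR adjusted p = 0.039). Leaving out any of the D, E or F samples ended this call, as did DESeq2 (adjusted p = 0.17). The sense gene CCDC144NL moved the same way at a far lower level, from 0.470 and 0.913 TPM in D to 10.4 and 10.3 in F. Over both sets it rose by 3.36 on the log2 scale (edgeR adjusted p = 0.011). In A-C alone it was not called. Its log2 fold change there ran from 2.18 to 6.88 over the 16 refits on counts that gave one. Over both sets CCDC144NL-AS1 had a log2 fold change of 1.20 (95% interval 0.12 to 2.28), which became 4.03 without A replicate 2, since A replicate 1 had no count.

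**Figure D4:**
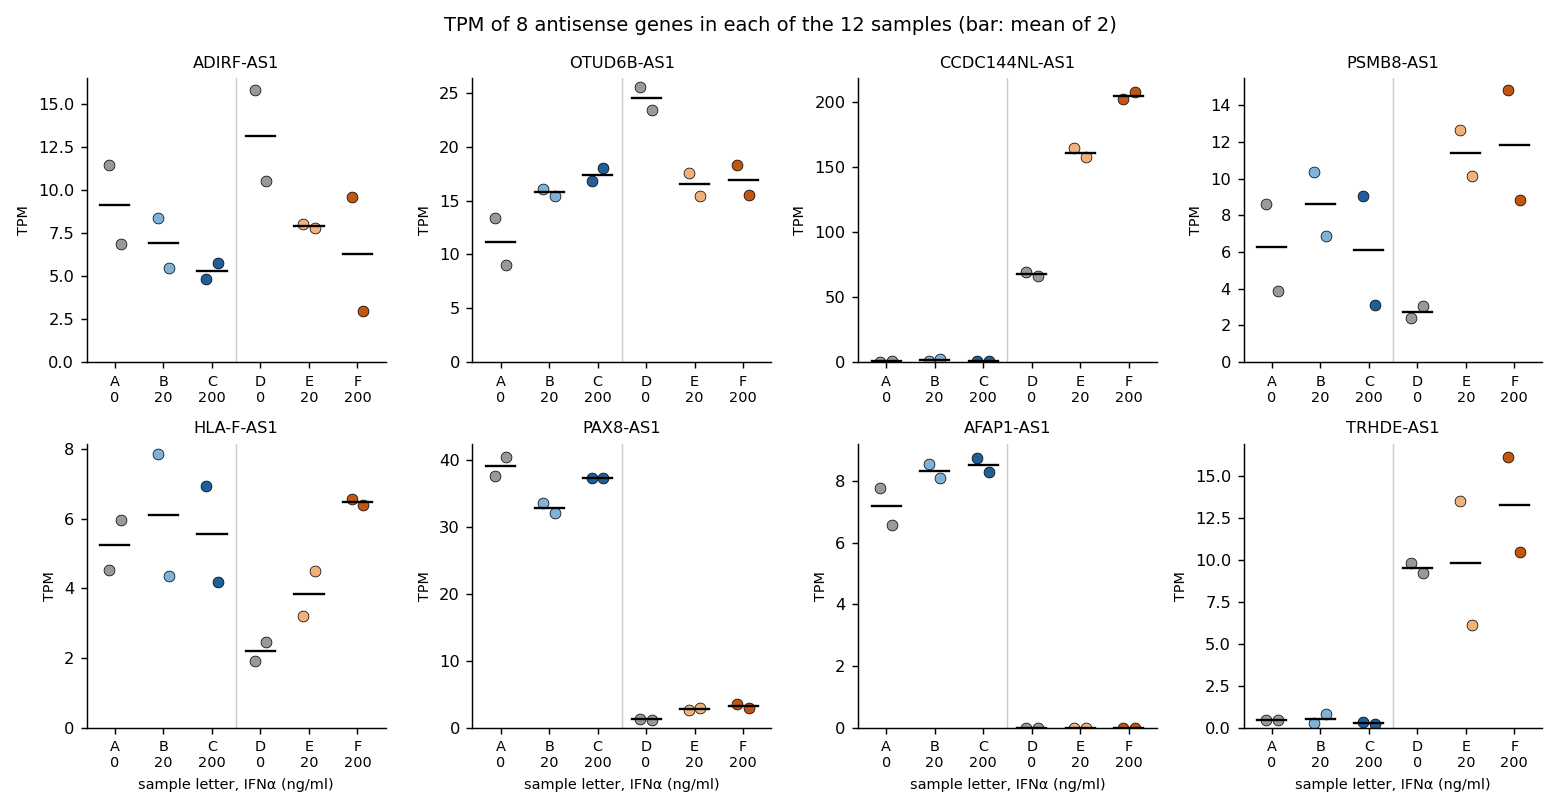
TPM of 8 antisense genes in each of 12 samples; the horizontal axis gives the letter and the IFNα dose in ng/ml, points are replicates and bars their means. CCDC144NL-AS1 climbs from 69.5 and 66.1 to 202 and 208 TPM in D-F, AFAP1-AS1 is 0 in D-F, and OTUD6B-AS1 moves up in A-C and down in D-F.

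The response differed between the line sets for 1 member, OTUD6B-AS1, beside 0.998% of all genes (interaction of dose and line set). OTUD6B encodes a deubiquitinase, and the antisense gene starts 7 bases from it. Its TPM was 13.4 and 8.99 in A, 16.1 and 15.4 in B, and 16.8 and 18.0 in C. In D-F it was 25.6 and 23.5 in D, 17.6 and 15.5 in E, and 18.3 and 15.5 in F. Treated samples were thus above the controls in one line and below them in the other. The log2 fold change at 200 ng/ml was 0.56 in A-C and -0.60 in D-F, neither called by itself, and their difference was -1.16 (95% interval -1.67 to -0.64, adjusted p = 0.041). This call held in 3 of 17 refits on counts, DESeq2, RLE size factors and the one without A replicate 1. In the other refits the call was lost, and over all 17 the difference ranged from -1.40 to -0.94.

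The antisense genes PSMB8-AS1 and HLA-F-AS1 have a sense gene on the interferon list. PSMB8 encodes an interferon-inducible subunit of the immunoproteasome and HLA-F a nonclassical class I molecule. Their promoters, and those of the antisense genes, were read from RefSeq (GRCh38.p14) as 250 bases before to 50 after the start and are shown for comparison with the responses. Capitals mark a match to the ISRE core, GAAANNGAA on either strand, where N is any base. All 4 are given 5′ to 3′ on the strand of the gene, at chr6:32843836-32844135 (plus), chr6:32844630-32844929 (minus), chr6:29749000-29749299 (minus) and chr6:29723184-29723483 (plus) in the order shown.
PSMB8-AS1: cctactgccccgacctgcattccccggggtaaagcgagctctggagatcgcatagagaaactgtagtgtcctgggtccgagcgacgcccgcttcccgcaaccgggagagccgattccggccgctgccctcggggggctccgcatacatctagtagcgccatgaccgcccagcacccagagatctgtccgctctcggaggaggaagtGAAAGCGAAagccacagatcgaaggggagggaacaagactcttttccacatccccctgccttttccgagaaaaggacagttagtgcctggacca
PSMB8: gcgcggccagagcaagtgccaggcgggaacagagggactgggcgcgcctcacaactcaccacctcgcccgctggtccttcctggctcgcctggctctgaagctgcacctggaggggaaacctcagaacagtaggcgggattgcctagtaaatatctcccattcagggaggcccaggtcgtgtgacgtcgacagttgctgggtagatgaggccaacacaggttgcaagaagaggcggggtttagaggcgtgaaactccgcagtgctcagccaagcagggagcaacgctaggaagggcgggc
HLA-F-AS1: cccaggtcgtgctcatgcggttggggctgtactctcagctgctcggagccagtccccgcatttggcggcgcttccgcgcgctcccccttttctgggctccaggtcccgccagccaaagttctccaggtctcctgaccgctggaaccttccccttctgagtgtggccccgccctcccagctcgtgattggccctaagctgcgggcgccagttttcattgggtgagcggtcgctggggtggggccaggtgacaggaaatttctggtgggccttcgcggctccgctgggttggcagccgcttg
HLA-F: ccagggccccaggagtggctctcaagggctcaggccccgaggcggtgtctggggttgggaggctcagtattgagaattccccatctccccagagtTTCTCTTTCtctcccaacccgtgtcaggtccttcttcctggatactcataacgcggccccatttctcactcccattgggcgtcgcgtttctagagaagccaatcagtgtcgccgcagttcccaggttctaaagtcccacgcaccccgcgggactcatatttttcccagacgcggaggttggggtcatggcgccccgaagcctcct

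The promoter of PSMB8-AS1 holds a match that begins 44 bases before its start and that of HLA-F one that begins 155 bases before, and the other 2 windows hold none. Over the members, 6 of the 79 promoters searched held a match, or 7.59%. The share was 8.11% for all 35116 promoters, and 10 of 93 sense genes held one. Among the 6 members, PSMA3-AS1 held a match that begins 74 bases before its start. HOXA-AS2 held 2, at 249 bases before its RefSeq start and at that start itself. This window, chr7:27121669-27121968, is not at the start of the counted gene, which begins at chr7:27107777 on the same strand. At the higher dose over both line sets, the log2 fold change of PSMA3-AS1 was -0.07 to 0.03 over the refits on counts and TPM. That of HOXA-AS2 was -0.79 to -0.17, and neither gene was called. Whether a match goes with a response was not tested.

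PSMB8-AS1 was at 8.64 and 3.86 TPM in A, 10.3 and 6.86 in B, and 9.07 and 3.10 in C, so the doses overlapped. In D-F it was at 2.40 and 3.05 in the controls, 12.7 and 10.1 at 20 ng/ml, and 14.8 and 8.83 at 200 ng/ml, and all treated samples lay above the controls. The log2 fold change at 200 ng/ml was 0.92 over both sets (95% interval 0.06 to 1.77, adjusted p = 0.18) and 1.83 in D-F (adjusted p = 0.093). The D-F value was called with DESeq2 (adjusted p = 0.022) and in the fit with the replicate number as a block (adjusted p = 0.041), and in no other refit on counts. Its exons overlap those of PSMB8 by 31.7% of their bases. PSMB8 was at 61.8 and 70.8 TPM in D and 158 and 157 in F, and its log2 fold change over both sets was 0.75, which passed the adjusted p but not the fold minimum. In D-F it was 1.16 and was called, also in all 17 refits on counts.

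HLA-F-AS1 was at 1.90 and 2.47 TPM in D, 3.20 and 4.48 in E, and 6.57 and 6.40 in F, and at 4.52 and 5.96 in A and 6.94 and 4.19 in C. The F samples were above all D and E samples, while A and C overlapped. Its log2 fold change was 0.54 over both sets (adjusted p = 0.14) and 0.89 in D-F (adjusted p = 0.12). Over both sets HLA-F rose by 1.43 on the log2 scale (adjusted p = 0.0014). The rise was larger in D-F, with a log2 fold change of 1.9 to 2.3 over the refits on counts. In A-C it was 0.6 to 0.8 over these refits, and HLA-F was not called there. In TPM HLA-F went from 19.6 and 12.7 in D to 72.3 and 60.3 in F. Of the 31-base words of HLA-F-AS1, 18.9% also occur in transcripts of other genes.

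Among the 100 sense genes tested, 4 rose and none fell at 200 ng/ml over both sets by the call rule, beside 1.58% and 0.552% of all genes. DESeq2 called none lower either. Without the fold minimum 9 were higher and 5 lower, beside 9.55% of all genes in either direction. The line sets differed. Within A-C 0 sense genes rose and 2 fell, beside 1.41% and 0.767% of all genes. Within D-F 6 rose and 0 fell, beside 1.67% and 0.416%. The 4 that rose over both sets were CCDC144NL, HLA-F, PAX8 and SDCBP2, the last named after its values were seen. The call of HLA-F held in all 17 refits on counts, that of CCDC144NL in 16, of SDCBP2, a syntenin adaptor, in 8 and of PAX8, a developmental transcription factor, in 4. The antisense genes of these 4 had log2 fold changes of 1.20, 0.54, 0.16 and 0.54, none of them called. Across the 101 pairs with both genes tested, 0 pairs had both called at 200 ng/ml, and the log2 fold changes had the same sign in 50. Within D-F 1 pair had both called, CCDC144NL-AS1 with CCDC144NL, and 5 had only the sense gene called. Pearson's r across pairs was 0.25 and Spearman's rho 0.03, given as a description because pairs share the same libraries.

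**Figure D5:**
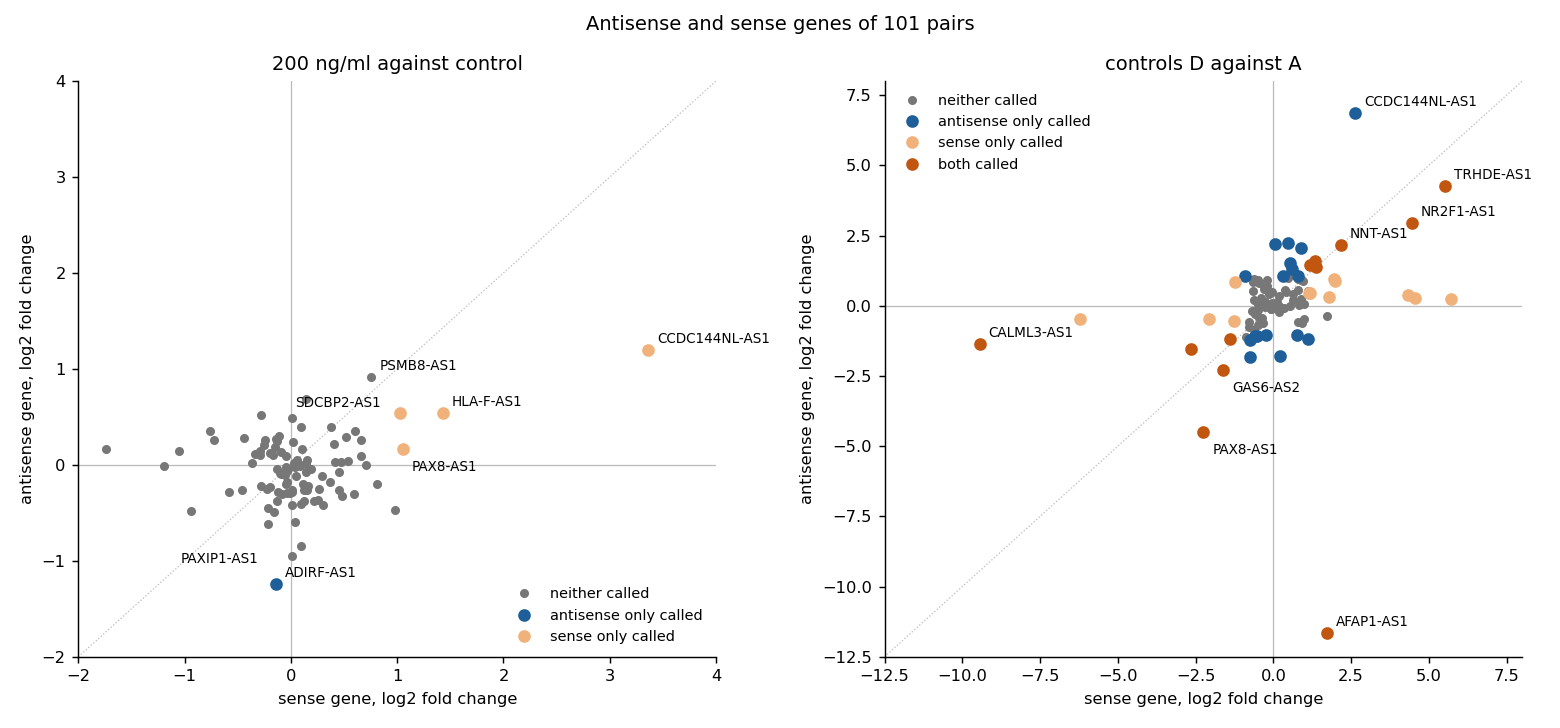
Log2 fold change of the antisense gene (vertical) against its sense gene (horizontal) for 101 pairs at 200 ng/ml against control (left) and for the D against the A controls (right); the dotted line marks equal change. At 200 ng/ml no pair has both genes called, while between the controls 12 pairs do, 11 of them in the same direction; the position of AFAP1-AS1, at 0 in D, depends on the prior count of the fit.

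The ratio of antisense to sense counts was compared between control and 200 ng/ml samples for the 17 named pairs, by a two-sided exact permutation test that exchanged doses within line sets. Its smallest possible p over 36 arrangements is 0.0556, so it cannot reach 0.05 and the values are given as a description. This smallest p was obtained for 4 pairs. ADIRF-AS1 was named for its own fall at this dose, which its ratio restates. The ratio fell by 1.09 on the log2 scale for ADIRF-AS1 to ADIRF and by 0.88 for HLA-F-AS1 to HLA-F, while it changed by -0.61 for FGD5-AS1, whose sense gene had no count, and by 0.38 for AFAP1-AS1, which had no count in D-F. For the last 2 pairs one side of the ratio was only the added count of 1 in those samples, so they give no ratio of the pair. With TPM in place of counts 0 pairs reached the smallest p.

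Far larger differences separated the line sets than the doses. In the controls 18 members were higher in D than in A and 14 were higher in A, or 27.8% of members, beside 15.7% of all genes higher and 11.0% lower in D. The members' median log2 difference, D minus A, was 0.20. Of the 32 calls, 27 were also made on TPM.

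The largest loss in D was that of AFAP1-AS1, at chr4:7754090-7778928, antisense to the gene of an actin filament-binding protein. It had 412 and 450 counts in A, 450 and 501 in B and 431 and 350 in C, and 0 in all 6 samples of D-F. Against a floor of 3 counts per library it was at least 148-fold lower in the D controls. AFAP1 differed in the opposite direction, with a log2 difference of 1.71, and 13.5 and 13.2 TPM in A beside 46.0 and 42.4 in D. This was the only pair called in opposite directions, among the 12 pairs with both genes called.

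PAX8-AS1 was at 37.6 and 40.4 TPM in A and 1.22 and 1.17 in D (log2 difference of -4.50), and PAX8 followed at a lower level with -2.25. In D-F the antisense gene was at 2.62 and 2.95 TPM in E and at 3.51 and 2.98 in F, above both D samples. On counts the fitted value in D-F was 0.61 (adjusted p = 0.34), with 29 and 58 counts in D and 51 and 55 in F, whereas on TPM the rise in D-F was called (1.36, limma adjusted p = 0.0022), as was its difference from A-C (1.43, adjusted p = 0.036). GAS6-AS2 starts 101 bases from GAS6, the ligand of the TAM receptor kinases, and differed by -2.29 while GAS6 differed by -1.63. LAMTOR5-AS1 differed by -1.83, and LAMTOR5, a subunit of the Ragulator complex at the lysosome, by -0.76.

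The largest gains in D were in CCDC144NL-AS1 with a log2 difference of 6.86 (up to 12.53 over the refits on counts, with 0 and 14 counts in A), TRHDE-AS1 with 4.25, IGFL2-AS1 with 3.46 and HOXA-AS2 with 3.20. TRHDE encodes the enzyme that degrades thyrotropin-releasing hormone. Its antisense gene was at 0.218 to 0.782 TPM in A-C and 6.14 to 16.1 in D-F, and TRHDE itself differed by 5.53. HOXA-AS2, in the HOXA homeobox cluster, was at 5.19 and 4.57 TPM in A and 59.1 and 43.9 in D. It was lower in all treated D-F samples, at 28.4 to 33.0 TPM, a difference at 200 ng/ml in D-F that did not pass the test (log2 fold change of -0.86, adjusted p = 0.15). IGFL2-AS1 was at 6.42 to 10.5 TPM in A-C and 64.7 to 101 in D-F.

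Several further pairs, named after their values were seen, differed together between the controls. NNT-AS1 differed by 2.15 and NNT, a mitochondrial transhydrogenase gene, by 2.17. The nuclear receptor pair NR2F1-AS1 and NR2F1 differed by 2.93 and 4.44, and SLC16A1-AS1 and the lactate transporter gene SLC16A1 by -1.52 and -2.64. Besides the 12 pairs with both genes called, 17 had only the antisense and 12 only the sense gene called. Of the 100 sense genes tested 15 were called higher and 9 lower in D, beside 15.7% and 11.0% of all genes. Whether more pairs had both genes called than such shares would give was not tested. The log2 differences had the same sign in 65 of 101 pairs, with a Pearson's r of 0.30 and a Spearman's rho of 0.47. Among 44 head-to-head pairs 4 had both genes called, 5 the antisense gene only and 0 the sense gene only. The 22 tail-to-tail pairs had 3, 2 and 6, respectively. The 17 nested pairs had 2, 4 and 4, and the 18 pairs of another arrangement had 3, 6 and 2. No test was made of the difference between arrangements.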

How the data were processed

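The members and gene lists were chosen with earlier results of these data known. The authors deposited an unscaled, whole-number estimated count for genes and transcripts, with TPM and with FPKM, which was not used. The submitters' processing notes name Trimmomatic 0.36, HISAT2 2.1.0, StringTie 1.3.3b and GRCh38.p10; the strand setting of counting is not given in the sources used here. Gene counts equalled the sum of transcript counts for all 60099 genes.

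Counts were tested with edgeR 4.0.16 in R 4.3.3 (filterByExpr, TMM, quasi-likelihood test, 6 groups of line set and dose, 12 samples), with DESeq2 1.42.0 as an alternative and limma 3.58.1 on log2(TPM + 0.1) added after the data were seen. Standard errors were derived from the log2 fold change and its F statistic. Scripts were tested on simulated data. Positions, types and 31-base words came from GENCODE 29. Tables were handled in pandas 2.3.3 under Python 3.11.15, and figures drawn in matplotlib 3.10.9.

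Named members were those called at 200 ng/ml, up to 3 more per direction at 20 ng/ml, the 6 highest in TPM, the 4 largest differences per direction between controls, those with an interaction, and those whose sense gene was on the interferon or double-stranded RNA list. A member named by this rule is not reported here. The ratio test added 1 to each count. Depth was 10517448 to 16056734 counts per sample, and with 2 replicates the spread between samples sets the precision.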

Additional observations from a re-analysis of the deposited data

Results flagged for a closer look

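OTUD6B-AS1 was singled out because its response to 200 ng/ml IFNα differed between the line sets by the interaction test, by -1.16 on the log2 scale for D-F minus A-C (edgeR adjusted p = 0.041). The 2 A samples were below and the 2 D samples above all treated samples of their own line. On TPM the difference was -1.20 and did not pass the test (limma adjusted p = 0.091). Its 4275-base transcript ENST00000522817 had 41 and 56 counts in A and 8 and 28 in C, while the 2171-base transcript ENST00000524003 had 206 and 168 in A and 261 and 229 in C. The part of that division in the result was not tested.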

How the results depend on the processing

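Counts of calls among the members were low, so small shifts changed them. They are listed only to show how far the settings move them, without the share of all genes beside most of them. Another mean count limit also changes the number of members. At 200 ng/ml the number higher was 0, and 1 with a 2-fold change and an unadjusted p. The number lower was 1, and 0 on TPM, 3 without the fold minimum and 4 with a mean count of at least 20. At 20 ng/ml the number higher was 1 with DESeq2, 1 with the replicate block and 2 with unadjusted p, and the number lower was 0 on TPM and 0 with a mean count of at least 100. Between the doses 1 was called with DESeq2, 1 with no filter and 1 with unadjusted p. The line set interaction gave 0 with no filter, 0 in the groups compared alone, 0 with the replicate block and 5 with unadjusted p. The number lower in A-C was 0 in the groups compared alone, 1 with the replicate block and 1 with a mean count of at least 100. The number higher in D-F was 2 with the block and 2 with unadjusted p, and the number lower there was 1 with unadjusted p. Between the controls the number higher in D was 34 without the fold minimum and 40 with a mean count of at least 20, and the number higher in A was 26 with at least 20 and 7 with at least 100. Without the fold minimum 45.2% of members were called between the controls in either direction, beside 46.4% of all genes. Sense genes higher at 200 ng/ml numbered 2 with no filter, 2 in the groups compared alone, 2 on TPM and 9 without the fold minimum, and those lower numbered 5 without it, 1 with unadjusted p and 1 with a mean count of at least 20. Ratios at the smallest p numbered 0 on TPM.

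Leaving out each sample in turn gave 0 to 1 higher and 1 to 2 lower at 200 ng/ml, 0 to 1 higher and 1 lower at 20 ng/ml, 0 to 1 between the doses, 16 to 22 higher in D, 11 to 14 higher in A and 0 to 1 for the interaction. Within A-C it gave 0 to 1 higher and 0 to 4 lower, and within D-F 0 to 1 higher and 0 lower. Sense genes ranged from 2 to 5 higher and stayed at 0 lower, and ratios at the smallest p from 2 to 5. The log2 fold change at 200 ng/ml then changed sign in NUTM2B-AS1 (-0.0284 to 0.0786), OTUD6B-AS1 (-0.13 to 0.10), PAX8-AS1 (-0.0419 to 0.44) and PSMA3-AS1 (-0.0702 to 0.0209), and on TPM it was 0.0627 in OTUD6B-AS1 and 0.0320 in PSMA3-AS1. Among the other refits none reversed a named member. Same-numbered replicates did not deviate together (r of -0.05 to 0.06 across 13033 genes). These correlations cannot show whether same-numbered samples were handled together, which the labels do not say. Apart from what follows from fewer genes, fewer samples or another threshold, the cause of these changes was not tested.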

Other observations

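OIP5-AS1, an abundant antisense RNA named here after its values were seen, had replicates that were far apart. Its counts were 195 and 2186 in D and 156 and 1739 in E, beside 1299 to 1599 in A, B, C and F. In TPM the same samples were closer, at 23.4 and 52.7 in D and 23.9 and 45.0 in E. The transcript ENST00000500949 had 3 and 1937 counts in D and 32 and 1620 in E.

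Over the 115 members and 6 letters, the larger of 2 replicates in depth-scaled count exceeded the smaller by a median of 1.16 times. In 8 of 690 such comparisons, from 6 members, it did so at least 3-fold with 50 or more counts in either sample. MMP24-AS1 was 1 of these, with 4 and 128 counts in A and 3 and 66 in C, and its TPM was as far apart, at 0.335 and 15.6 in A and 0.237 and 9.25 in C.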
